A study of Homo sapiens with 9 samples.

Results

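The E2F transcription factors and the pocket proteins are described here by the 10 genes E2F1 to E2F8, RB1 and RBL1, which were picked by their symbols from the 60603 genes of the count table. All 10 had counts in every library and passed the filter on low counts. RNA came from TC32, an established line of Ewing sarcoma cells with the EWS::FLI1 fusion, and was sequenced 30 h into the experiment in 3 groups of 3 libraries. The siEF cells were given an siRNA over the fusion breakpoint, the siNEG cells a nonspecific siRNA, and the media cells are labelled media alone. All 9 libraries carry the labels WT and batch 1, and the cells grew with 10% FBS and L-glutamine. TC32 is a single line, so the libraries, labelled as biological replicates, share 1 tumour of origin, and the p values below measure the spread between these libraries. The siNEG libraries served as the control for siEF, because they also received an siRNA, and the media libraries served as a further control.

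E2F factors bind DNA, mostly together with a DP partner, at promoters of genes needed for DNA replication and cell division. E2F1, E2F2 and E2F3 are known mainly as activators, E2F4 and E2F5 as repressors that work with pocket proteins, E2F6 as a repressor that needs no pocket protein, and E2F7 and E2F8 as repressors that bind without a DP partner. The pocket proteins RB (from RB1) and p107 (from RBL1) hold E2F factors in check until cyclin-dependent kinases phosphorylate them, and several of these genes are themselves E2F targets.

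Several members carry known E2F motifs close to their start. Shown are the promoters of E2F1, E2F2, E2F3 and RBL1, each with 2 places with E2F letters in the 120 bases before the start. E2F6 also holds 2 places, but 183 and 78 bases before its start, and is not shown. The promoter of E2F7, which like every member was lower in siEF, is shown as an example without such letters. E2F4 holds none either. The sequences are the 120 bases before the RefSeq transcription start on GRCh38.p14, read 5′ to 3′ on the strand of the gene. Capitals mark the letters searched for on either strand, which were TTTCGCG and the related forms TTTGGCG and then TTTCCCG and also TTTGCCG, with overlapping matches joined. E2F1 lies on the minus strand of chromosome 20 (chr20:33686386-33686505), E2F2 on the minus strand of chromosome 1 (chr1:23531234-23531353), E2F3 on the plus strand of chromosome 6 (chr6:20401759-20401878), RBL1 on the minus strand of chromosome 20 (chr20:37095998-37096117) and E2F7 on the minus strand of chromosome 12 (chr12:77065570-77065689).
E2F1: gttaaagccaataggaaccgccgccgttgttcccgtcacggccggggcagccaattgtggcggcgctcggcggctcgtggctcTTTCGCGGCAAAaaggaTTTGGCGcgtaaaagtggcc
E2F2: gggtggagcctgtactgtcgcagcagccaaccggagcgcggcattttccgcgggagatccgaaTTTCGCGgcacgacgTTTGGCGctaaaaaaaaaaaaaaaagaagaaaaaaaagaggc
E2F3: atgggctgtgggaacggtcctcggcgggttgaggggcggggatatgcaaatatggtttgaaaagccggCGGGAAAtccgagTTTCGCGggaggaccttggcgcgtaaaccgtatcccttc
RBL1: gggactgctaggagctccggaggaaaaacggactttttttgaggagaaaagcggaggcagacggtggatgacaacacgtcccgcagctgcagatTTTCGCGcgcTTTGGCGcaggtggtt
E2F7: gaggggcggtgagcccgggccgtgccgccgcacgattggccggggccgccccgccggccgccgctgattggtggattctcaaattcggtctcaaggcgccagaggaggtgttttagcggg

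Over windows of 300 bases, 250 before and 50 after the start, RefSeq sequences were matched for 8 of the 10 members (not E2F5 and E2F8), with 2 windows for E2F3. The E2F letters began 37 and 20 bases before the start in E2F1, 57 and 42 in E2F2, 52 and 39 in the upstream window of E2F3, 26 and 16 in RBL1, and 183 and 78 in E2F6. E2F4, E2F7 and the downstream window of E2F3 held none, and E2F4 held the ETS letters CGGAAGT, the kind of sequence that FLI1 and other ETS factors bind, 11 bases after its start. The window of RB1 belongs to a start inside the gene and held neither motif. Among all 35116 windows, 8.67% held the E2F letters, 0.635% held them at 2 or more places and 6.83% held the ETS letters on either strand. Such matches describe the sequence and show no binding, and counts per gene do not tell the 2 starts of E2F3 apart.

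**Figure D1:**
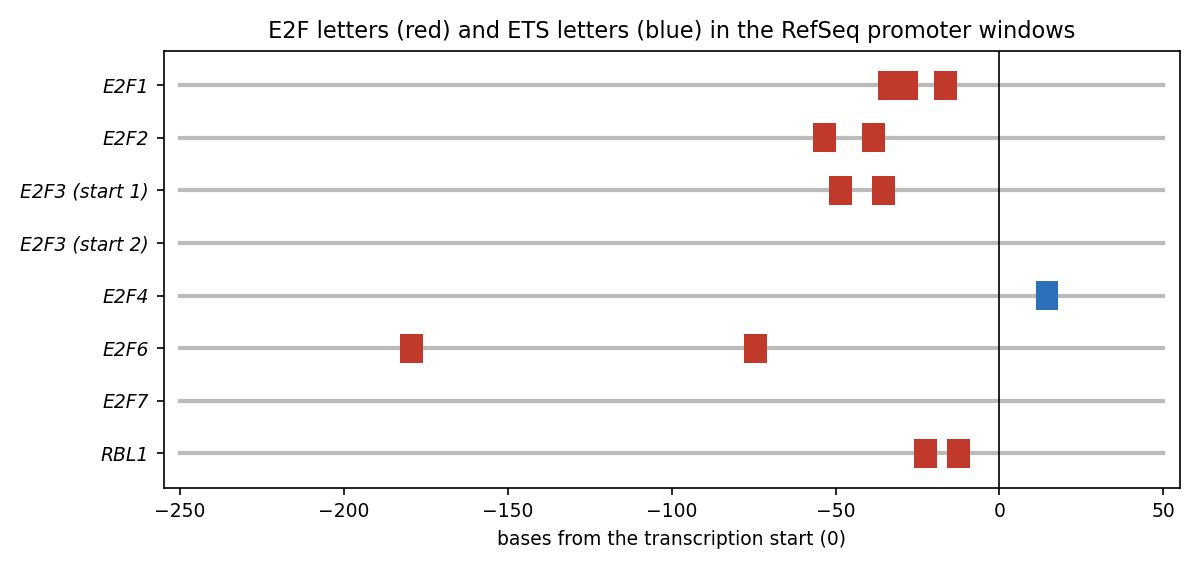
Places of E2F letters (red) and ETS letters (blue) in the RefSeq windows of 7 members, drawn as grey lines; the x axis gives bases from the transcription start. E2F1, E2F2, the first start of E2F3 and RBL1 hold 2 places each within 57 bases of the start, E2F6 holds 2 farther away, and E2F7 holds none.

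Total expected counts, the reads that RSEM assigned to genes, ran from 20727706 to 33134581 per library, with the lowest total in siEF replicate 2. FLI1, the 3′ partner of the fusion, was at 48.4 ± 0.315 CPM (SD, n = 3) in siNEG and at 37.8 ± 2.0 CPM (SD, n = 3) in siEF, where CPM are counts scaled to a fixed library total after TMM, and its log2 fold change was -0.35 (adjusted P = 2.88e-05 in edgeR's quasi-likelihood test, SE 0.06). EWSR1, the 5′ partner, was at -0.23 on the log2 scale in the same fit. A count per gene does not separate the fusion transcript from reads of the other alleles. The study states, however, that FLI1 itself is not expressed in these cells, and it reports a 3-cycle change by qPCR after silencing. Why the FLI1 counts fell by less was not tested. All 6 Ewing sarcoma markers looked at had counts in every group. In siEF against siNEG, 5 of them (NR0B1, PAX7, LIPI, STEAP1 and NKX2-2) fell, with log2 fold changes from -2.97 to -1.44, and CD99 rose by 0.23. Against media the same 5 were lower, and CD99 was at -0.11 (adjusted P = 0.0815 in edgeR's quasi-likelihood test). The summed level of the 6 was between 548 and 599 CPM in media, between 450 and 473 CPM in siNEG and between 244 and 253 CPM in siEF. Between the 2 controls, 4 of the 6 were lower in siNEG than in media and 2 did not pass an adjusted P of 0.01. Of all genes, 5.96% were lower there. Of 8 markers of other lineages 5 were tested, and against siNEG 4 were higher and 1, PECAM1, was lower in siEF. Against media 3 were higher and 1 was lower in siEF. EPCAM did not differ there, with 10 to 13 counts per media library and a log2 fold change of 0.02 (adjusted P = 0.97 in the same test). DES, a muscle filament gene, had 58 to 80 counts per siEF library and 5 to 11 per siNEG library, LUM, a matrix proteoglycan, had 20 to 43 against 0 to 1, CDH1, the epithelial cadherin, had 16 to 28 against 0, and EPCAM had 9 to 13 against 0 to 3. PTPRC, MYOD1 and MYOG had 0 counts in siEF, and the summed level of the 8 was between 6.72 and 7.09 CPM in siEF and between 3.78 and 4.71 CPM in siNEG. Their part in the values below was not tested. In bulk RNA, fewer cells in cycle and less RNA of a gene per cell cannot be told apart.

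All 10 genes were lower in siEF than in siNEG at an adjusted P under 0.01 in edgeR's quasi-likelihood test over 16093 genes. Of all genes tested, 31.7% were lower and 33.6% higher at that threshold. A log2 fold change below -1 was reached by 5 of the 10 (E2F1, E2F2, E2F7, E2F8 and RBL1) and by 11.7% of all genes. In every one of the 10, the siEF and siNEG libraries did not overlap, with siEF below, as they did for 37.1% of all genes. The median log2 fold change was -1.0 over the members and 0.05 over all genes tested. The remaining level ranged from 8.10% of siNEG in E2F2 to 79.2% in RB1.

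**Figure D2:**
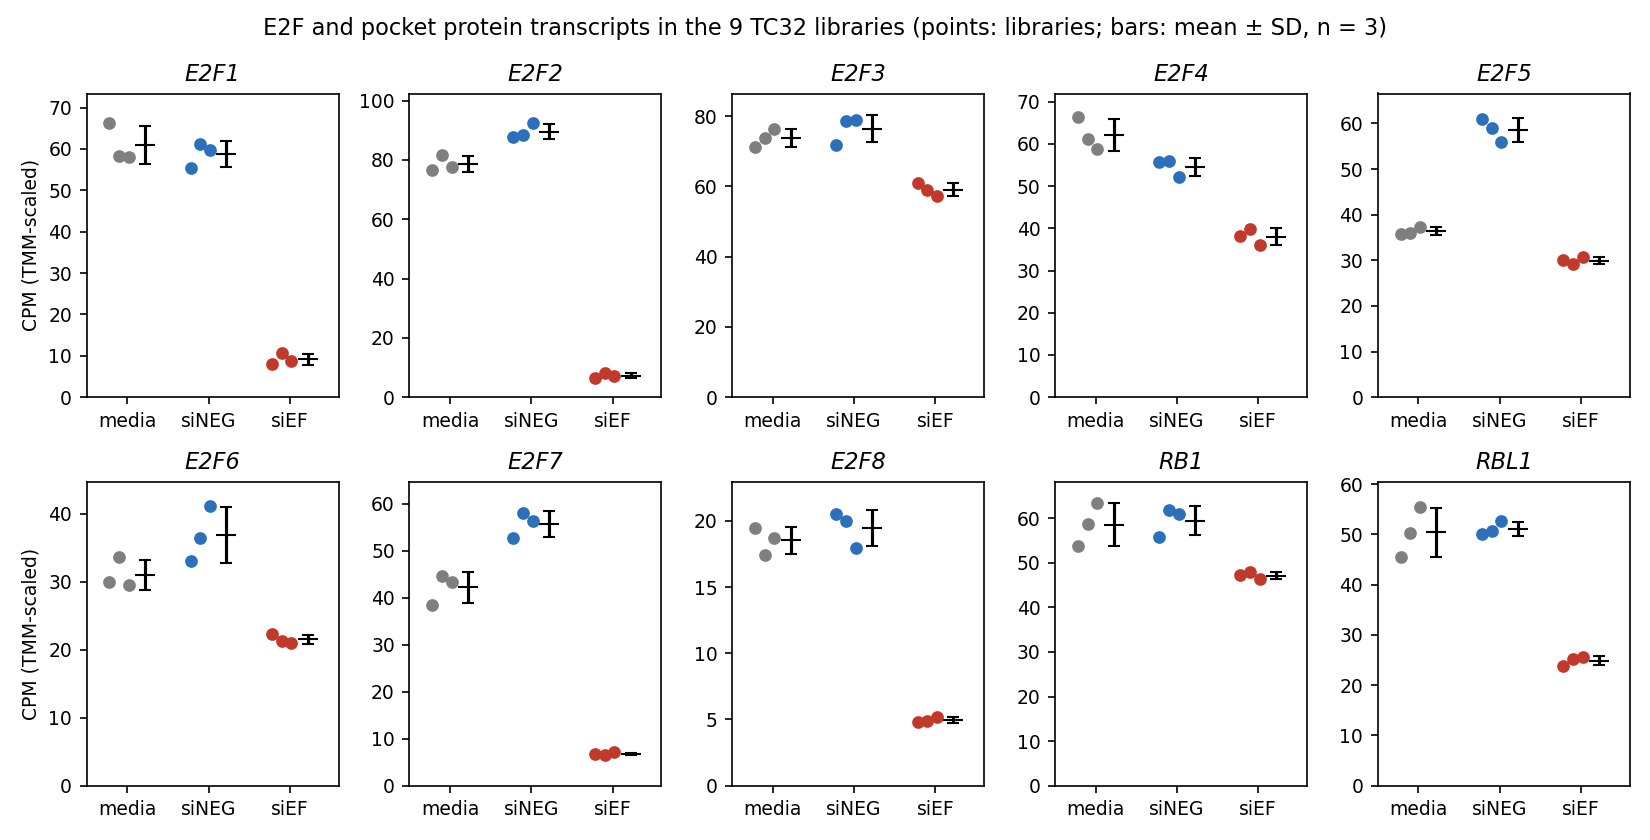
TMM-scaled CPM (y axes, each from 0) of the 10 genes in the media, siNEG and siEF libraries; points are libraries and bars the mean ± SD (n = 3). In each panel the siEF points lie below those of both other groups, and in E2F5 the siNEG points stand well above the media points.

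Among the activators, E2F2 and E2F1 fell the most and E2F3 the least. E2F2 (chromosome 1, 23506438 to 23531233) was at 6.50, 8.13 and 7.27 CPM in siEF replicates 1, 2 and 3, at 87.9, 88.5 and 92.3 CPM in the siNEG replicates and at 76.6, 81.6 and 77.6 CPM in the media replicates. The siEF libraries were low together, far from both other groups. The siNEG mean of 89.6 ± 2.39 CPM (SD, n = 3) and the siEF mean of 7.30 ± 0.814 CPM (SD, n = 3) gave a log2 fold change of -3.63 (adjusted P = 3.08e-16 in edgeR's quasi-likelihood test, SE 0.07), so that siEF kept 8.10% of it. Unscaled, E2F2 had between 166 and 212 counts in a siEF library and between 2781 and 3003 in a siNEG library.

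E2F1 (chromosome 20, 33675477 to 33686385), the founding member of the family, was at 7.98, 10.6 and 8.74 CPM in the siEF replicates, at 55.4, 61.2 and 59.8 CPM in siNEG and at 66.3, 58.4 and 58.1 CPM in media. Replicate 2, the shallowest library, was the highest of the siEF libraries, and the siNEG and media values overlapped. The fall left 15.4% of the siNEG level, or -2.70 as log2 fold change (adjusted P = 1.3e-13 in edgeR's quasi-likelihood test, SE 0.09). E2F3 (chromosome 6, 20401879 to 20493714) stayed close to its control level, at 61.1, 58.9 and 57.3 CPM in siEF, 71.9, 78.6 and 78.8 CPM in siNEG and 71.1, 73.6 and 76.4 CPM in media. Its siEF libraries were below all others, although by much less than those of E2F1 and E2F2. It kept 77.3% of the siNEG level (log2 fold change -0.37, adjusted P = 1.27e-05 in edgeR's quasi-likelihood test, SE 0.06).

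Against siNEG, the repressors that work with pocket proteins fell less than E2F1 and E2F2 and more than E2F3. Against media, E2F5 (log2 fold change -0.28) fell less than E2F3 (-0.32). E2F4 (chromosome 16, 67192155 to 67198918), the E2F most tied to resting cells, was at 38.2, 39.9 and 36.0 CPM in siEF, 55.7, 56.0 and 52.2 CPM in siNEG and 66.4, 61.1 and 58.9 CPM in media. The 3 groups did not overlap, with media highest and siEF lowest. Against siNEG its log2 fold change was -0.52 (adjusted P = 1.13e-06 in edgeR's quasi-likelihood test, SE 0.06), so that 69.5% remained.

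E2F5 (chromosome 8, 85177154 to 85217158) was at 30.0, 29.1 and 30.7 CPM in siEF, 61.0, 59.0 and 55.8 CPM in siNEG and 35.9, 36.1 and 37.4 CPM in media. Here siNEG stood apart from both other groups, and media lay much nearer to siEF. The log2 fold change was -0.97 against siNEG (adjusted P = 1.61e-10 in edgeR's quasi-likelihood test, SE 0.06) and -0.28 against media (adjusted P = 0.000406 in the same test, SE 0.06), and with upper quartile scaling the second was -0.18 and no longer passed. E2F5 overlaps RBIS on the other strand, which had between 960 and 1556 counts per library, and the strand setting of the counting is not given in the sources used here, so reads of these 2 genes may be mixed.

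E2F6 (chromosome 2, 11444375 to 11466177), the repressor that recruits a Polycomb complex, was at 22.3, 21.3 and 20.9 CPM in siEF, 33.0, 36.4 and 41.1 CPM in siNEG and 29.9, 33.6 and 29.5 CPM in media. The siNEG libraries were spread more widely than those of siEF and overlapped with media. Its log2 fold change was -0.78 (adjusted P = 2.13e-07 in edgeR's quasi-likelihood test, SE 0.08), and 58.4% of the siNEG level was left. Its pseudogene E2F6P1 held between 6.54 and 25.4 counts per library, against at least 435 for E2F6.

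The atypical repressors, which also act on E2F1, both fell far. E2F7 (chromosome 12, 77021248 to 77065569) was at 6.65, 6.51 and 7.06 CPM in siEF, 52.7, 58.0 and 56.2 CPM in siNEG and 38.5, 44.7 and 43.3 CPM in media. The 3 groups were apart, with siNEG highest. Its log2 fold change of -3.04 (adjusted P = 6.77e-15 in edgeR's quasi-likelihood test, SE 0.08) left 12.2% of the siNEG level. E2F8 (chromosome 11, 19224063 to 19241620) was at 4.81, 4.90 and 5.21 CPM in siEF, 20.5, 19.98 and 17.95 CPM in siNEG and 19.5, 17.4 and 18.7 CPM in media. Both control groups overlapped and the siEF libraries lay well under them. The remaining level was 25.6% of siNEG, a log2 fold change of -1.97 (adjusted P = 7.09e-12 in edgeR's quasi-likelihood test, SE 0.09).

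The pocket protein genes differed in how far they fell. RB1 (chromosome 13, 48303744 to 48599436), the retinoblastoma tumour suppressor, was at 47.3, 47.8 and 46.3 CPM in siEF, 55.8, 61.8 and 60.9 CPM in siNEG and 53.7, 58.7 and 63.4 CPM in media. Its siEF libraries were below all others, and siNEG and media overlapped. Against siNEG, RB1 had the smallest change of the 10 (log2 fold change -0.34, adjusted P = 0.00021 in edgeR's quasi-likelihood test, SE 0.07). It kept 79.2% of the siNEG level. RB1 overlaps LPAR6 and RCBTB2 on the other strand, with at most 224 and 149 counts per library, against at least 977 for RB1.

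RBL1 (chromosome 20, 36996349 to 37095997), which encodes p107, was at 23.9, 25.1 and 25.6 CPM in siEF, 49.98, 50.6 and 52.7 CPM in siNEG and 45.6, 50.3 and 55.4 CPM in media. The media libraries spread on both sides of siNEG, and all siEF libraries were far below. Its log2 fold change was -1.04 (adjusted P = 1.03e-09 in edgeR's quasi-likelihood test, SE 0.07), and 48.7% was left. The other p107-like gene, RBL2, which encodes p130, is no member and was looked at after its values were seen. It was at 132, 136 and 140 CPM in siEF, 112, 116 and 122 CPM in siNEG and 82.8, 91.7 and 95.0 CPM in media, with no overlap between groups. The log2 fold change of RBL2 against siNEG was 0.22 (adjusted P = 0.00156 in edgeR's quasi-likelihood test, SE 0.05). It no longer passed without siEF replicate 3 (0.20) or without siNEG replicate 1 (0.16). Against media, RBL2 was higher in siEF by 0.60 (adjusted P = 3.55e-08 in the same test, SE 0.05). It was also higher in siNEG than in media, by 0.38 (adjusted P = 0.000124 in the same test, SE 0.05).

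The comparison of siNEG with media asks what the nonspecific siRNA goes along with. Of the 10 genes, 2 were higher in siNEG at an adjusted P under 0.01, E2F5 and E2F7, and 8 did not pass. Over all genes, 3.83% were higher and 5.96% lower. E2F5 rose by a log2 fold change of 0.69 (adjusted P = 4.33e-07 in edgeR's quasi-likelihood test, SE 0.06) and E2F7 by 0.40 (adjusted P = 0.000404 in the same test, SE 0.06). Every siNEG library lay above every media library in 3 members (E2F2, E2F5 and E2F7) and in 15.5% of all genes, and below in 1 member (E2F4) and in 17.3% of all genes. E2F2, E2F4 and E2F6 had log2 fold changes of 0.19, -0.19 and 0.25 with adjusted P values of 0.0327, 0.0448 and 0.0368 from that test. The values of E2F1, E2F3, E2F8, RB1 and RBL1 lay between -0.05 and 0.07, and those of E2F1, RB1 and RBL1 took the other sign without media replicate 1 and without 1 siNEG replicate (replicate 1 for E2F1, 2 for RB1 and 3 for RBL1). E2F6 passed without siNEG replicate 1, at 0.33.

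Against media, all 10 genes were again lower in siEF, 5 of them with a log2 fold change below -1. The background was 32.3% lower, 33.6% higher and 12.5% below -1, and every siEF library lay below every media library in 10 of 10 members and in 36.8% of all genes. This comparison shares its siEF libraries with the one against siNEG, so the values are only set side by side. The log2 fold changes were -3.44 in E2F2, -2.75 in E2F1, -2.64 in E2F7, -1.89 in E2F8, -1.02 in RBL1, -0.71 in E2F4, -0.53 in E2F6, -0.32 in E2F3, -0.31 in RB1 and -0.28 in E2F5. The pair of controls placed E2F5 differently, in the middle of the order against siNEG and last of the 10 genes against media.

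**Figure D3:**
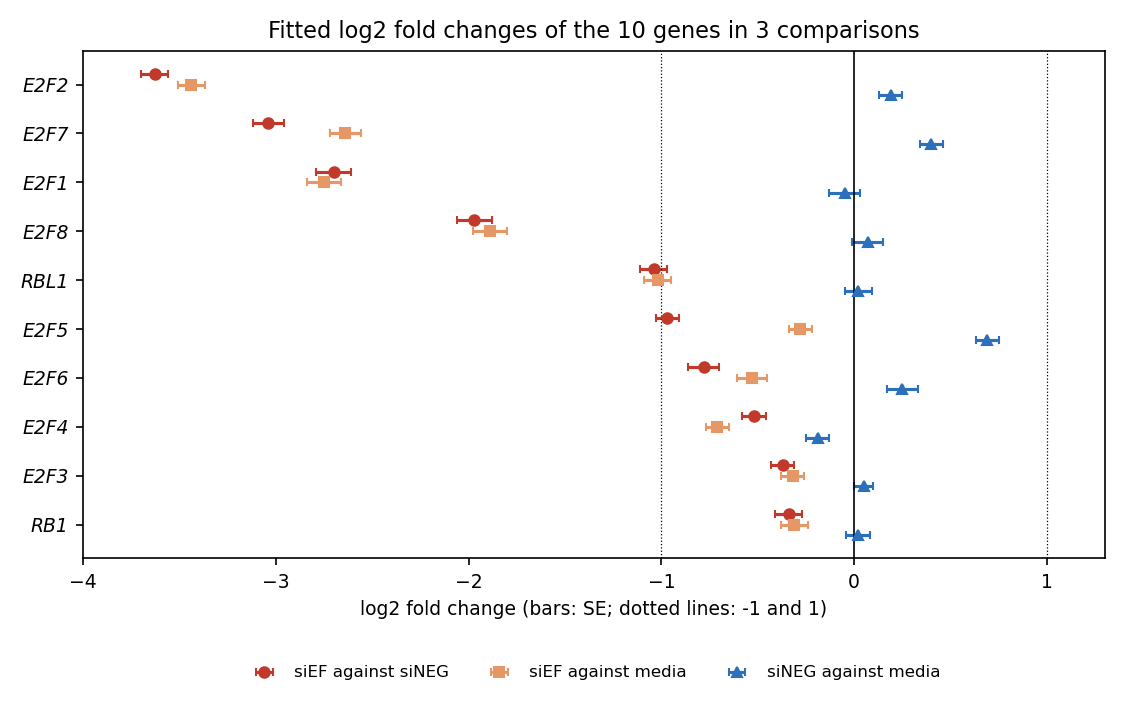
Fitted log2 fold changes (x axis) of the 10 genes in the 3 comparisons, with bars for the SE from 9 libraries and dotted lines at -1 and 1. The siEF values against both controls are all below 0, and E2F5 is the gene where siEF against siNEG and siEF against media lie farthest apart.

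Levels were compared between genes as CPM per kb of the canonical transcript. In siNEG the order from high to low was E2F5 at 29.8 CPM per kb, E2F4 at 25.9, E2F1 at 21.9, E2F2 at 17.2, E2F3 at 15.2, RB1 at 12.5, E2F6 at 11.4, E2F7 at 9.72, RBL1 at 8.98 and E2F8 at 5.26. Only the neighbours RB1 and E2F6, and E2F7 and RBL1, overlapped between libraries. In media E2F4 led at 29.4 CPM per kb, followed by E2F1 at 22.7 and E2F5 at 18.6, and E2F2 overlapped with E2F3, and E2F6 with RBL1. In siEF the order was E2F4 at 18 CPM per kb, E2F5 at 15.3, E2F3 at 11.7, RB1 at 9.89, E2F6 at 6.65, RBL1 at 4.38, E2F1 at 3.39, E2F2 at 1.40, E2F8 at 1.34 and E2F7 at 1.18. E2F2 and E2F8 overlapped there, and E2F1 stood in place 7 of 10 where it had been in place 3. This order depends on the length taken, above all for E2F5, which has a canonical transcript of 1964 bases and 5999 bases in the union of its exons. Per kb of that union, E2F5 was at 9.77 in siNEG, in place 5, and E2F1 led in siNEG at 21.9 and in media at 22.7, with E2F3 first in siEF at 11.4.

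The makeup of the summed E2F level differed between groups. The sum over E2F1 to E2F8 was 59.1, 60.0 and 57.8 CPM per kb in the siEF replicates, 134, 139 and 136 in siNEG and 124, 122 and 120 in media. E2F4, E2F5 and E2F6 made up between 67.2% and 68.2% of the sum in siEF, between 48.4% and 50.4% in siNEG and between 46.6% and 47.4% in media. The activators E2F1, E2F2 and E2F3 had a share between 27.7% and 28.7% in siEF, between 38.6% and 40.8% in siNEG and between 42.6% and 43.0% in media. Within the activators the main gene changed. E2F3 made up 74.2%, 67.9% and 71.0% of the level of the 3 activators in siEF, where the 6 other libraries ranged from 26.4% to 29.3%. These shares, too, move with the length. Per kb of the union of exons, a setting added after the values were seen, E2F4, E2F5 and E2F6 had 52.7% to 53.8% in siEF and 33.4% to 34.6% in siNEG, and the activators had 40.6% to 41.7% in siEF and 51.8% to 53.5% in siNEG. The activators were then the larger class in siNEG and media and the smaller one in siEF, and E2F3 still made up at least 67.6% of them in siEF. With canonical lengths, E2F7 and E2F8 together had at most 4.56% of the E2F sum in siEF and at least 9.62% in the other groups. The sum of RB1 and RBL1 was between 14.1 and 14.5 CPM per kb in siEF, and the other libraries had between 19.3 and 23.0. These are RNA levels and tell nothing of protein or phosphorylation.

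**Figure D4:**
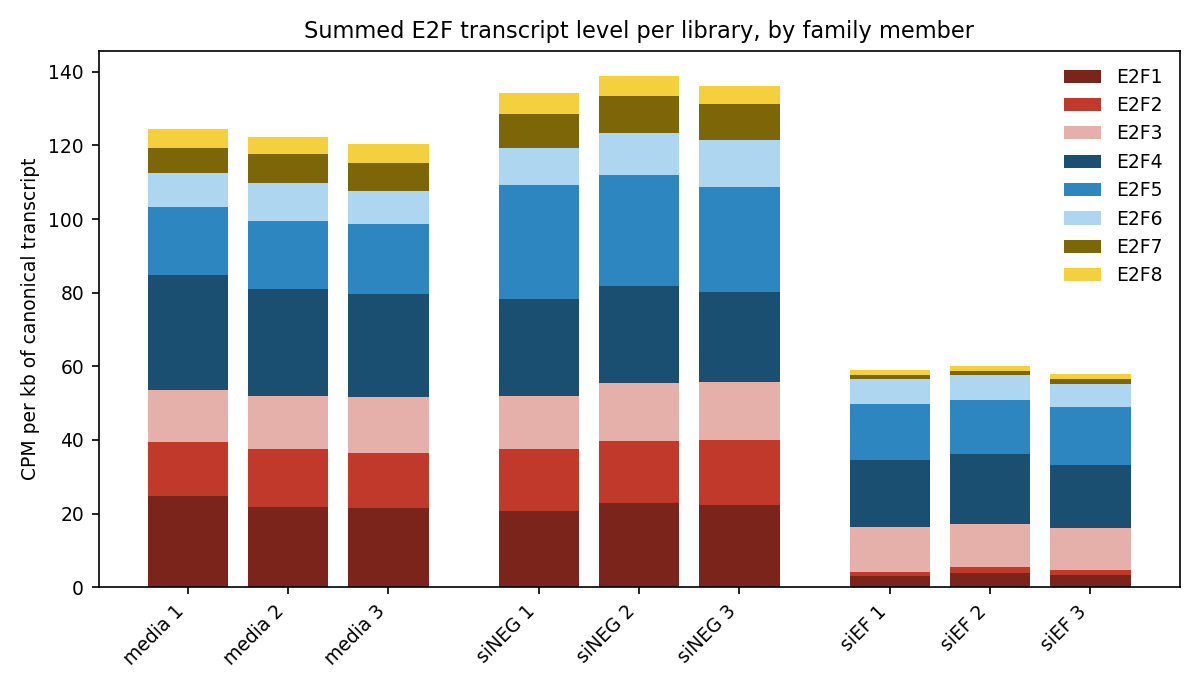
Summed E2F transcript level (y axis, CPM per kb of canonical transcript) in each of the 9 libraries, stacked by gene. The siEF sums are 57.8 to 60.0, and E2F4 and E2F5 (the darker blues) take 56.2% to 56.6% of them at this length but 39.5% to 39.8% with the union of exons, while E2F1 and E2F2 (dark reds) are thin in siEF.

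Genes around the E2F factors were described through 10 lists with 95 distinct genes, of which 86 were tested. Over all genes, 31.7% were lower, 33.6% higher and 11.7% lower beyond -1 in siEF against siNEG, and the counts below stand beside these shares. The DP partners moved apart. TFDP1, which encodes the main partner DP1, fell from 212.5 CPM in siNEG to 92.9 CPM in siEF, or by -1.19 as log2 fold change (adjusted P = 8.05e-13 in edgeR's quasi-likelihood test, SE 0.05). TFDP2 rose by 0.85 (adjusted P = 1.49e-08 in the same test, SE 0.07), from a mean of 22.5 CPM in siNEG, and TFDP3 had too few counts to be tested.

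Of 29 genes with E2F control at the entry into S phase, 29 were lower in siEF than in siNEG and 27 had a log2 fold change below -1, with a median of -2.07. The largest falls were those of CCNE2, which encodes cyclin E2, at -3.20 (SE 0.09) and of MCM4, a subunit of the replicative helicase, at -3.10 (SE 0.05), with adjusted P values of 1.28e-14 and 2.2e-17 from edgeR's quasi-likelihood test. Of 23 such genes with a RefSeq window, 16 held the E2F letters in at least 1 window, against 10.4% of all 27305 genes with a window. The list was drawn from genes known for E2F control, with earlier results of these data known, so a high share was built into that choice. The 12 mitotic genes of the MuvB complex, which pairs with pocket proteins in resting cells and with MYBL2 and FOXM1 in dividing ones, were also all lower, with a median of -1.11. PLK1, a mitotic kinase, had the largest fall at -2.57 and AURKB, the kinase of the chromosomal passenger complex, followed at -1.41, both past the test. Against media the S-phase list was lower in 29 of 29 genes as well, where 32.3% of all genes were lower. Between siNEG and media 27 of 29 did not pass and 2 were higher, and most of all genes did not pass either (3.83% higher and 5.96% lower). Of the 12 mitotic genes, 3 were lower in siNEG than in media and 9 did not pass.

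The MuvB list itself, with MYB genes and FOXM1, had 6 lower, 1 higher and 1 gene that did not pass among 8, with a median of -1.11. LIN52, the subunit that docks pocket proteins, had a log2 fold change of -2.81 and FOXM1, the mitotic activator, one of -2.50. LIN54, the DNA-binding subunit, was the one that rose, by 0.61, and had been lower in siNEG than in media by 0.37 on that scale. Both values of LIN54 passed edgeR's quasi-likelihood test (adjusted P = 2.44e-07 and 0.000781). The subunits of 1 complex thus moved in both directions.

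Kinases that switch pocket proteins off, and their cyclins, were mostly lower. Among 9 genes, counting CDC25A, which is neither kinase nor cyclin, 7 were lower, 1 higher and 1 not past the test. The median was -1.24. CCND1, the D-type cyclin with by far the most counts here, fell from 1868 CPM in siNEG to 5.10% of that level, a log2 fold change of -4.29 (adjusted P = 6.51e-18 in edgeR's quasi-likelihood test, SE 0.06). CDK6, a partner of D-type cyclins, rose by 1.19 (adjusted P = 5.3e-09 in the same test, SE 0.09) and was already higher in siNEG than in media by 0.63. CCNE1, which encodes cyclin E1, was higher in siNEG than in media by a log2 fold change of 1.00 (adjusted P = 2.69e-06 in the same test, SE 0.10). Of 7 CDK inhibitor genes 5 were tested, with 2 higher, 1 lower and 2 that did not pass. CDKN1A (p21) rose by 1.59 and CDKN1B (p27) by 0.84, and both were also higher in siNEG than in media, by 0.71 and 0.53. CDKN2D (p19, an inhibitor of CDK4 and CDK6) fell by 1.53 on the log2 scale from a mean of 3.34 CPM.

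Corepressors that pocket proteins recruit did not move one way, and nor did all genes, of which 31.7% were lower and 33.6% higher. Among the 9 corepressors, 4 were lower, 3 higher and 2 not past the test, with a median of -0.02. HDAC3, a histone deacetylase, fell by 2.03 on the log2 scale and SUV39H1, a histone methyltransferase, fell by 0.90, while SIN3B and ARID4A, subunits of the SIN3 complex, rose by 0.72 and 0.69. In the Polycomb complex that E2F6 recruits, 8 of 12 genes were lower and 2 higher, with a median of -0.42. L3MBTL2 and WDR5, which bind histones, had log2 fold changes of -1.27 and -0.71, RYBP, a core subunit, had 1.41 and RING1, a ubiquitin ligase, had 0.32. HDAC1 and HDAC2 stand in both of these lists. Likewise, CCNE1, CCNE2 and CDC25A stand both in the list around the cyclins and kinases and in that of S-phase genes.

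Of 8 germline genes known to be silenced by E2F6, only TDRKH and STAG3 had enough counts for the test. TDRKH, a Tudor protein of the piRNA pathway, was at 7.77 CPM in siNEG and had a log2 fold change of -0.44 (adjusted P = 0.00909 in edgeR's quasi-likelihood test, SE 0.14), a call that was lost in 10 of 16 alternatives, among them those without siEF replicate 1, 2 or 3 and those without siNEG replicate 2 or 3, with values between -0.59 and -0.35 when 1 library was left out. Among 3 genes of ligases that mark E2F1 or its family for degradation, CCNF (cyclin F) fell by 0.92 on the log2 scale, SKP2 rose by 0.22 but not past the test without siNEG replicate 1 (0.16), and FZR1 was at 0.17 with an adjusted P of 0.0315 from that test.

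**Figure D5:**
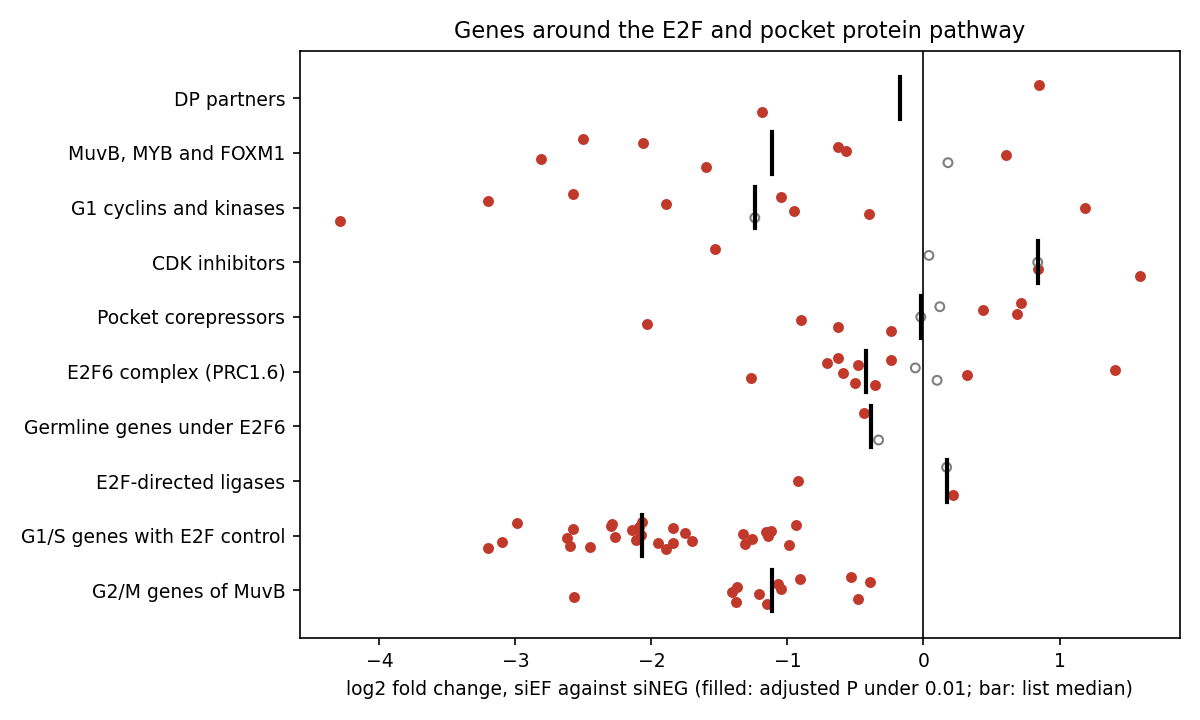
Log2 fold changes of siEF against siNEG (x axis) for the tested genes of 10 lists around the E2F pathway; filled points passed an adjusted P of 0.01, open points did not, and black bars are list medians. Both lists of cell cycle targets lie wholly below 0, with medians of -2.07 and -1.11, while corepressors and the E2F6 complex lie on both sides.

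The nearest patterns to 3 members were sought among 9539 genes with a mean of at least 10 CPM, by Pearson's r of log2 CPM over the 9 libraries, which fall into 3 groups and so share the group differences. For E2F1 these were PTPN9 (r = 0.999), RFC2 (r = 0.999), a subunit of the clamp loader of DNA replication, and CHAF1B (r = 0.999), a subunit of a chromatin assembly factor, and 2609 genes had an r over 0.95. For E2F8 they were TNFSF13B (r = 0.999), MESD (r = 0.999) and SKP1 (r = 0.999), with 2616 genes over 0.95. RB1 had fewer such neighbours, with 99 genes over 0.95 and ICE1 (r = 0.989), TAF1B (r = 0.987) and UBXN7 (r = 0.981) at the top.

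An siRNA can also lower transcripts whose 3′ UTR matches its bases 2 to 8. The site for the sense strand of the breakpoint siRNA, GGGTTCT, was in none of the 10 members' canonical 3′ UTRs (0 of 10) and in 10.7% of the 13330 tested genes with a 3′ UTR. The site for the antisense strand, TTATGAC, was found once in E2F3 and once in E2F7, 2 of 10 members, against 8.99% of genes. Among the members, E2F3 changed little and E2F7 fell far. Over all tested genes, the median change between siNEG and siEF on the log2 scale was -0.17 with the sense site and 0.07 without it, and -0.08 with the antisense site and 0.06 without it. Outside the members only a few genes that were lower in siEF were looked up by name, and CCNE2, MCM4 and PLK1 were not among them. The share of sites in such a hand-picked set cannot be set beside that of all genes. Of the genes looked up, LIN52, FOXM1, CCND1 and HDAC3 each held 1 sense site. TFDP1 and the MuvB gene LIN9, with log2 fold changes of -1.19 and -1.60, held neither site. The part of such sites in any of these values was not tested.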

How the data were processed

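RNA from TC32 cells was sequenced in 9 libraries, grouped as siEF, siNEG and media by their labels. The authors mapped reads to hg38 and deposited expected counts per gene from RSEM, with no scaling for depth and each replicate in its own column; annotation release and strand setting are not given in the sources used here. DESeq2 1.32.0 and cutadapt 2.10 appear in the submitters' processing notes. Of the genes, 60261 (99.4%) had an identifier in GENCODE release 44, from which positions (GRCh38), lengths and 3′ UTRs were taken.

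Expected counts were rounded. filterByExpr of edgeR 4.0.16 (R 4.3.3) kept 16093 genes, library sizes were TMM-scaled, and the quasi-likelihood test was run in 1 fit of all 9 libraries, with Benjamini-Hochberg adjustment over all genes. The thresholds, an adjusted P of 0.01 and a log2 fold change of 1, are those of the study's methods. The procedure was tested on simulated data. SE is the size of the log2 fold change over the square root of F. Depth was 20727706 to 33134581 counts per library, so a member's lowest count, 100 in E2F8, sets the poorest counting precision. Libraries of a group differed by more than sampling noise (chi-square per degree of freedom 3.57 to 23.2). All 9 value columns were used. Likeness used log2 of CPM + 0.5.

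Members and lists were chosen with earlier results of these data known. Named genes were all members, FLI1 and EWSR1, in each list up to 2 with the largest rise and 2 with the largest fall at an adjusted P under 0.01 and all genes of lists of 3 or fewer, and the 3 most alike to E2F1, E2F8 and RB1; RBL2, CCNE1 between siNEG and media, and the values of other comparisons beside these were added later. Alternatives were RLE or upper quartile scaling, DESeq2 1.42.0, 2 other filters, a fit of the 6 libraries of a comparison alone, a replicate block, each library left out in turn, and, for the order of levels, another gene length and no scaling; that length was also tried on the shares of the E2F sum after the data were seen. Promoters came from RefSeq (GRCh38.p14) and matched hg38 in 9 of 9 windows.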

Additional observations from a re-analysis of the deposited data

How the results depend on the processing

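The counts of members past the threshold in the 3 comparisons were the same or within 1.5 times under every alternative run. With the length of the union of all exons in place of the canonical transcript, 5 of 10 members kept their rank in siEF, 5 in siNEG and 2 in media, so the order of levels between genes depends on the length used. The mean share of E2F4 to E2F6 in the summed E2F level moved with it from 67.7% to 53.2% in siEF, from 49.2% to 33.8% in siNEG and from 47.1% to 33.2% in media. Each member's log2 fold change of siEF against siNEG kept its sign and stayed at an adjusted P under 0.01 in 16 of 16 alternatives. The cut at a log2 fold change of -1 was crossed by RBL1, which ran from -1.09 to -0.95, and by E2F5, from -1.01 to -0.88. The number of members below -1 was thus 4 with upper quartile scaling and 6 with a filter of at least 1 count in total. Upper quartile scaling moved the median of all genes by 0.09 and brought RB1 to -0.25 and E2F3 to -0.28. Between siNEG and media, values near 0 changed sign when 1 library was left out, with ranges from -0.09 to 0.01 in E2F1, from -0.04 to 0.08 in RB1 and from -0.05 to 0.09 in RBL1. E2F6 in that comparison also passed with a filter of at least 1 count in total (0.25), and FLI1, at a log2 fold change of -0.26 in the main test, no longer passed without siNEG replicate 1, 2 or 3 or media replicate 1 (-0.28 to -0.24 over all libraries left out). Of the named list genes, TDRKH, SKP2 and FZR1 did not keep their side of the threshold in siEF against siNEG under every alternative, and the others did. FZR1 passed with upper quartile scaling (0.25). The cause of these changes was not tested. The replicate numbers showed no sign of pairing the samples. Deviations of same-numbered libraries correlated between -0.101 and 0.0859 and those of other pairs between -0.162 and 0.111. With 3 libraries a group, these values cannot show whether same-numbered libraries were handled together. With the replicate number as a block, 10 members were lower in siEF than in siNEG, 5 of them below -1, 2 were higher in siNEG than in media, and 10 were lower in siEF than in media, as without it; of the list genes 64 were lower and 11 higher in siEF than in siNEG, and TDRKH no longer passed.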
